A study of Mus musculus with 24 samples.

Results

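Arc, Homer1, Plk2, Ptgs2, Rgs2, Pim1 and Ccn1 are early effector genes, whose transcripts appear within minutes to hours of neuronal stimulation. They encode proteins that act at the synapse, at the membrane, in signalling inside the cell or outside the cell, and not on DNA. These 7 genes were chosen by symbol from the 55414 genes of the count table, and all 7 had enough counts to be tested. RNA of the visual cortex was sequenced from 24 male C57BL/6J mice aged 8 to 10 weeks and kept on a reversed light cycle. Each mouse gave 1 library, and each of the 4 groups held 6 mice. Dark mice received PBS, the vehicle, and stayed in darkness, light mice received PBS and were moved into light, and psilocybin-dark and psilocybin-light mice received 5 mg/kg psilocybin by intraperitoneal injection before the same exposures. Tissue was taken 2.5 h later, in the dark phase of the cycle, so each value is a single time point. Psilocybin is a prodrug of psilocin, an agonist of serotonin receptors.

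The light exposure of the groups rests on the headings of the study's supplementary count table, because the sample labels give the opposite exposure for every library with the same drug and the same sets of 6 mice. Under the labels, light minus dark and psilocybin-light minus psilocybin-dark change sign, as does the interaction. The comparison called psilocybin-dark minus dark then becomes psilocybin against PBS under light, and psilocybin-light minus light becomes psilocybin against PBS in darkness. The counts of each set of mice are the same under either naming.

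Early effector genes are switched on by calcium entry and kinase signals that reach transcription factors such as CREB, SRF and MEF2 already present in the neuron, so that their first transcripts need no new protein. In the visual cortex, light after darkness is a classic stimulus for Arc and Homer1. Arc forms capsid-like assemblies and drives the removal of AMPA receptors from synapses. The short product of Homer1 uncouples metabotropic glutamate receptors from their scaffold. Plk2 is a polo-like kinase that weakens overactive synapses, Ptgs2 encodes cyclooxygenase-2, the inducible enzyme of prostaglandin synthesis, and Rgs2 speeds the shut-off of Gq signalling. Pim1 is a serine/threonine kinase of survival signalling, and Ccn1 is a secreted matrix protein that binds integrins.

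The 4 upstream windows that hold the CRE half-site, the core of the CREB binding sequence, before the start are printed because CREB is among the factors named for these genes. They come from RefSeq on GRCm38.p6, which matched 6 of the 7 members with 8 windows of 300 bases, 250 before and 50 after each start. Each line gives the 250 bases before the start in the direction of transcription, and capitals mark TGACG or its reverse complement CGTCA.
Homer1 (chr13:93303507-93303756, plus strand): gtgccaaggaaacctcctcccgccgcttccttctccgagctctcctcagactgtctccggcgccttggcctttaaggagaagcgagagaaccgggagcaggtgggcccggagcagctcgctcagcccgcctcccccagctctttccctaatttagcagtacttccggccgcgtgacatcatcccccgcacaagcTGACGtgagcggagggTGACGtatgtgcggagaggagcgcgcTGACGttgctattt
Plk2 (chr13:110394794-110395043, plus strand): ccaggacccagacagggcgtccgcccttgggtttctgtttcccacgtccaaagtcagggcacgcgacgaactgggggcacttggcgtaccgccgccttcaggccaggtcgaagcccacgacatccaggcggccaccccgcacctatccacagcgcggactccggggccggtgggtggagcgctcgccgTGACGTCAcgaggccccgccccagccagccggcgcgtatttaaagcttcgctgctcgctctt
Rgs2 (chr1:144004150-144004399, minus strand): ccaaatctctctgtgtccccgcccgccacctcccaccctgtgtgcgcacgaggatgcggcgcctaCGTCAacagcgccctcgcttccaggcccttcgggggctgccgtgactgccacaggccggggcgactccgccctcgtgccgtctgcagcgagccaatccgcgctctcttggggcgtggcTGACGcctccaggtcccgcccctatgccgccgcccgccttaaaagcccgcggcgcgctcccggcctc
Ccn1 (chr3:145649986-145650235, minus strand): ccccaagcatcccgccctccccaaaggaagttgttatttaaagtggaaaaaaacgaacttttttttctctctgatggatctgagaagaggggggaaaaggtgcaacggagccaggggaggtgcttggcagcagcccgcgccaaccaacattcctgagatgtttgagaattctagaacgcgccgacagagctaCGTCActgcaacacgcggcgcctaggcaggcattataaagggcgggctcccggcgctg
Homer1 carried 3 half-sites, which began 56, 40 and 14 bases before the start. Plk2 carried the full CRE, TGACGTCA, which contains the half-site on both strands, and a further half-site 22 bases into the transcript. Rgs2 carried half-sites 185 and 67 bases before the start, Ccn1 carried 1 at 58 bases before it, and Ptgs2 carried 1 that began at base 14 of the transcript. Neither Pim1 window nor the other Homer1 window held these letters. Over both strands, the half-site was in 20.8% and the full CRE in 1.79% of 32817 windows of the same length. TGACTCA, the AP-1 motif, was in 5.2% of all windows, the CArG box, bound by SRF, in 1.63%, and GCGTGGGCG, bound by Egr factors, in 0.612%, and none of these was in a member's window. Such matches describe the sequence and not binding. Arc was not among the windows.

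The genes lie on 5 chromosomes, with positions here from GENCODE on GRCm39. Arc (ENSMUSG00000022602) spans chr15:74540932-74544419 on the minus strand, and Homer1 (ENSMUSG00000007617) spans chr13:93436143-93541637 on the plus strand. Plk2 (ENSMUSG00000021701) lies on the same chromosome as Homer1, at chr13:110531015-110537379 on the plus strand. Ptgs2 (ENSMUSG00000032487, chr1:149975194-149983978, plus strand) and Rgs2 (ENSMUSG00000026360, chr1:143875076-143879899, minus strand) share a chromosome as well. Pim1 (ENSMUSG00000024014) spans chr17:29709581-29715086 on the plus strand, and Ccn1 (ENSMUSG00000028195) spans chr3:145352720-145355738 on the minus strand. Reads were counted per gene, so the short and long forms of Homer1 were not separated.

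Libraries held between 13552516 and 17906994 counts, and values below are normalized counts, scaled by TMM to the mean effective library size. Libraries of dark mice 1 and 6, psilocybin-dark mouse 12 and light mouse 18 stood apart before any comparison: the sum of 10 cerebellar markers was 35300, 73460, 34450 and 21380 normalized counts in them and between 588.7 and 3135 in the other 20. The sum of 12 cortical glutamatergic markers, genes that mark the excitatory neurons of the labelled tissue, was the lowest of its group in each, at 32050 and 40860 in dark mice 1 and 6, 70360 in mouse 12 and 77140 in mouse 18, against 78420 to 101000 in the other 20. Dark mice also had the most of the 10 hippocampal markers, with sums of 5712 to 9003 against 2438 to 5528 in the other 18 mice. Of the 8 tested markers 5, 3 and 6 were called lower in light, psilocybin-dark and psilocybin-light mice than in dark mice. Over all genes 16.5%, 12.8% and 21% were called lower in these comparisons. Of 9 hypothalamic markers, Oxt, Hcrt, Pmch and Calcr had medians under 1, and the sum was 211.1 to 2323 in dark mice and 29.35 to 522.6 in the other groups. The hippocampal sums of dark mice overlapped with no other group, while the mean log2 level of the same markers, from 2.90 to 4.38 in dark mice and 2.04 to 3.07 in the others, did overlap. In bulk tissue, fewer cells of a type and less RNA per cell cannot be told apart.

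Arc changed most of the 7 against dark mice. In dark mice its normalized count had a lowest value of 617.3, a median of 1185 and a highest value of 1454. In light mice the lowest, median and highest were 4915, 7071 and 13570. In psilocybin-dark mice they were 2159, 6221 and 8377, and in psilocybin-light mice 8352, 9517 and 14940. Every mouse of the 3 exposed or treated groups stood above every dark mouse, including mice 12 and 18. Arc was 7.1-fold higher in light than in dark mice (log2 fold change 2.83, SE 0.31, edgeR adjusted p = 1.57e-06), 5.42-fold higher in psilocybin-dark mice (2.44, SE 0.30, adjusted p = 1.39e-05) and 9.41-fold higher in psilocybin-light mice (3.23, SE 0.31, adjusted p = 2e-07). Without the 4 libraries high in cerebellar markers, dark values ran from 1085 to 1454, and the 3 log2 fold changes were 2.58, 2.36 and 3.00.

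**Figure D1:**
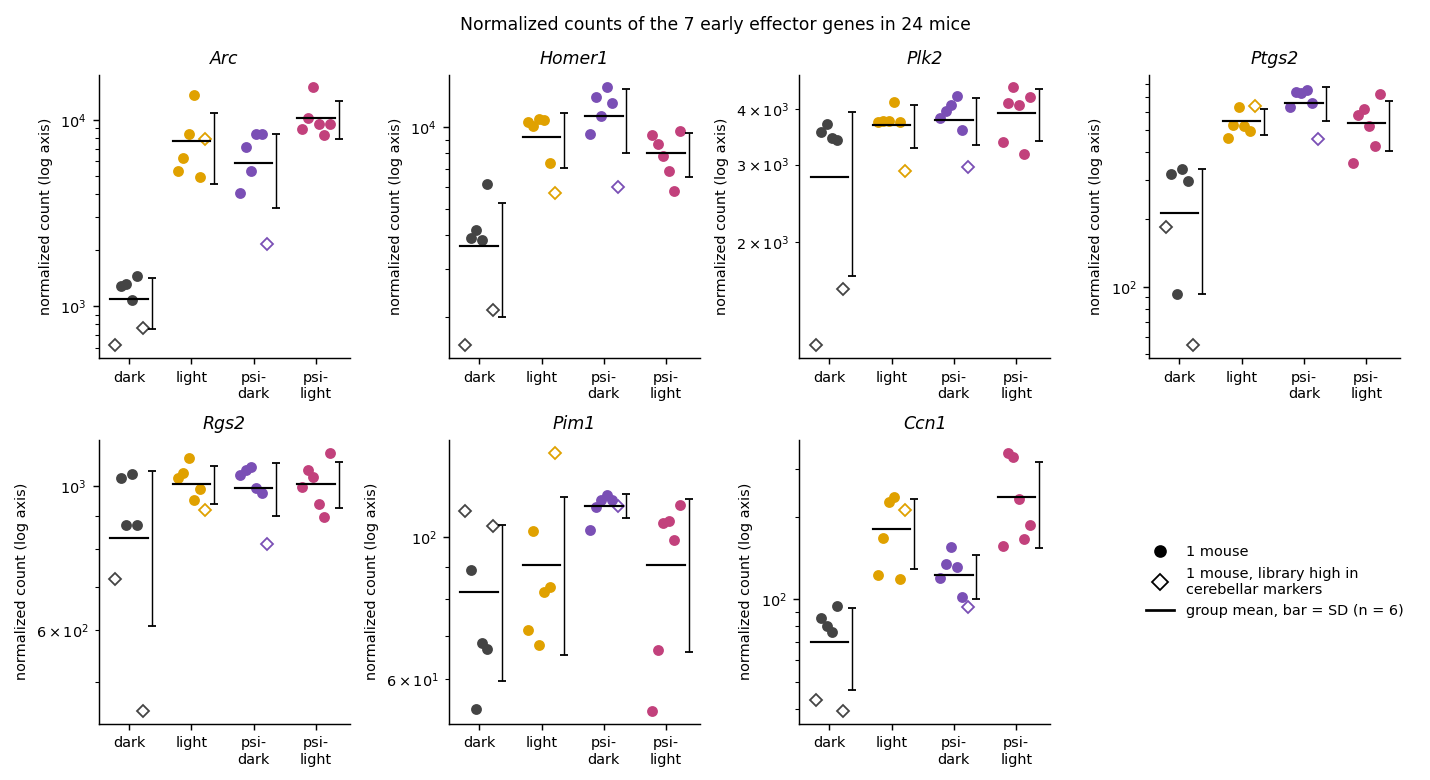
Each panel plots the normalized count of 1 gene on a log axis for 24 mice in 4 groups, with 1 point per mouse, open diamonds for the 4 libraries high in cerebellar markers, a line at the group mean and a bar of 1 SD beside it (n = 6). Arc and Ptgs2 have no dark mouse above the lowest mouse of any other group, while Plk2 and Rgs2 in dark mice spread down to the 2 diamonds.

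Homer1, the postsynaptic scaffold gene, followed with a smaller rise. Its dark values had a lowest of 1569, a median of 3863 and a highest of 6185, while light values were 5697, 10320 and 10710. Psilocybin-dark values were 6001, 11660 and 14010, and psilocybin-light values were 5806, 8246 and 9682. In each of the 3 groups 5 of 6 mice stood above every dark mouse, and the exceptions were light mouse 18, psilocybin-dark mouse 12 and psilocybin-light mouse 23, all below dark mouse 5. Homer1 was higher than in dark mice by a log2 fold change of 1.34 in light (SE 0.26, edgeR adjusted p = 0.000439), 1.59 in psilocybin-dark (SE 0.26, adjusted p = 0.000147) and 1.14 in psilocybin-light mice (SE 0.26, adjusted p = 0.00124). Without the 4 libraries these were 1.13, 1.40 and 0.84, with edgeR adjusted p-values of 1.45e-05, 2.56e-06 and 0.000178.

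Ptgs2, the cyclooxygenase gene, showed a rise of like size from a lower level. Its lowest, median and highest normalized counts were 54.83, 240.4 and 336.2 in dark mice and 460.3, 525.4 and 640.2 in light mice. They were 456.4, 693.6 and 756.8 in psilocybin-dark mice and 355.7, 554.5 and 724.7 in psilocybin-light mice. No dark mouse overlapped with another group, and 1 low dark value, 92.76 in mouse 3, was not in a library high in cerebellar markers. The log2 fold changes against dark mice were 1.35 (SE 0.29, edgeR adjusted p = 0.00119) in light, 1.63 (SE 0.29, adjusted p = 0.000363) in psilocybin-dark and 1.33 (SE 0.29, adjusted p = 0.001) in psilocybin-light mice.

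Ccn1, the secreted matrix protein, was the member that separated the psilocybin groups from each other. Its lowest, median and highest normalized counts were 39.29, 77.9 and 94.79 in dark mice and 118.8, 189.6 and 236.7 in light mice. Psilocybin-dark mice had 94.09, 125.6 and 154.7, and psilocybin-light mice had 157.2, 209.5 and 342.7. Light and psilocybin-light mice did not overlap with dark mice, psilocybin-dark mouse 12 lay just under dark mouse 5, and every psilocybin-light mouse was above every psilocybin-dark mouse. Ccn1 was higher than in dark mice by a log2 fold change of 1.38 (SE 0.25, edgeR adjusted p = 0.000211) in light, 0.82 (SE 0.25, adjusted p = 0.0184) in psilocybin-dark and 1.76 (SE 0.25, adjusted p = 1.09e-05) in psilocybin-light mice. The psilocybin-dark call was lost without dark mice 1 and 6 (0.54, edgeR adjusted p = 0.094) and without all 4 libraries high in cerebellar markers (0.61, edgeR adjusted p = 0.0675). Ccn1 is also made by vessel cells, and the 7 endothelial markers summed to 2729 to 3260 in dark, 3048 to 4384 in light, 2635 to 4005 in psilocybin-dark and 2344 to 3888 in psilocybin-light mice. Of these 7 markers, 1 was called higher in light and 1 in psilocybin-light mice than in dark mice, with 0 called in psilocybin-dark mice and 0 between the psilocybin groups. Over all genes 15.4% were higher in light and 17.4% in psilocybin-light mice, so the 1 of 7 was near the share of all genes. In either direction 24.7% of all genes were called in psilocybin-dark mice and 6.38% between the psilocybin groups.

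Plk2, Rgs2 and Pim1 passed edgeR's test in no pair of groups with all 24 mice and no covariate. With 1 surrogate variable in the fit Plk2 (0.42, 0.43 and 0.39, edgeR adjusted p = 0.000644, 0.000722 and 0.00127) and Rgs2 (0.27, 0.23 and 0.20, edgeR adjusted p = 0.00442, 0.0184 and 0.033) were called higher in light, psilocybin-dark and psilocybin-light mice than in dark mice, and Pim1 in psilocybin-dark mice (0.53, edgeR adjusted p = 0.0117). That fit called 41.9%, 34% and 45.7% of all genes in these 3 comparisons, in either direction. Plk2, a kinase of synaptic scaling, had lowest, median and highest normalized counts of 1168, 3430 and 3709 in dark, 2903, 3759 and 4148 in light, 2958, 3892 and 4281 in psilocybin-dark and 3175, 4115 and 4485 in psilocybin-light mice. The 2 lowest dark values were those of mice 1 and 6, and the other 4 dark mice, from 3412 to 3709, lay within the range of each other group. The lowest light and psilocybin-dark values were those of mice 18 and 12, also high in cerebellar markers. Without them light mice ran from 3746 to 4148, above these 4 dark mice, and psilocybin-dark mice from 3589 to 4281, which overlapped with them. With all 24 mice the log2 fold changes of Plk2 against dark mice were 0.39 (95% interval -0.01 to 0.79), 0.43 (0.03 to 0.83) and 0.48 (0.08 to 0.88), with edgeR adjusted p-values of 0.151, 0.129 and 0.0647. DESeq2 called Plk2 in psilocybin-light mice (0.49, adjusted p = 0.0465), as did edgeR without dark mouse 2, 3 or 4 (0.56, 0.58 and 0.55, adjusted p = 0.043, 0.0359 and 0.0492). Without dark mice 1 and 6 the 3 fold changes shrank to 0.05, 0.09 and 0.14.

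Rgs2, the brake on Gq signalling, differed little between groups. Its lowest, median and highest normalized counts were 451.4, 871.1 and 1045 in dark, 918.6, 1009 and 1105 in light, 815.8, 1016 and 1071 in psilocybin-dark and 895.9, 1014 and 1125 in psilocybin-light mice. All groups overlapped, and mice 6, 18 and 12 were the lowest of their groups. The log2 fold changes against dark mice were 0.28, 0.26 and 0.28 (edgeR adjusted p = 0.109, 0.16 and 0.095), and 0.07, 0.05 and 0.07 without dark mice 1 and 6. Leaving out dark mouse 2 or 4 brought light mice (0.35 in both, edgeR adjusted p = 0.0499 and 0.0461) and psilocybin-light mice (0.35 in both, edgeR adjusted p = 0.0417 and 0.0379) past the threshold.

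Pim1, the survival kinase, had low counts, as Ccn1 did. Its lowest, median and highest normalized counts were 53.93, 78.71 and 110 in dark, 67.8, 82.88 and 135.7 in light, 102.8, 113.2 and 116.6 in psilocybin-dark and 53.52, 102.2 and 112.5 in psilocybin-light mice. Psilocybin-dark mice lay in a narrow band, with a coefficient of variation of 4.31% against 26.9% to 27.8% in the other groups, and 5 of 6 were above every dark mouse. Their log2 fold change was 0.45 (SE 0.19, edgeR adjusted p = 0.0947), and an exact two-sided permutation test of the 12 mice gave p = 0.00866, unadjusted among 42 such tests with a smallest possible p of 0.00216. The highest dark values were 110 and 104.2, in mice 1 and 6, and without them the difference was 0.68 and passed the test (edgeR adjusted p = 0.0119), as it did without mouse 1 alone (0.55, edgeR adjusted p = 0.0475).

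Per kilobase of annotated exon, the order of the levels changed with group. In dark mice the median normalized counts per kilobase were 671 for Plk2, 340 for Arc, 314 for Homer1, 240 for Rgs2, 46.9 for Ptgs2, 38.3 for Ccn1 and 22.4 for Pim1. Arc and Homer1 were neighbours that did not differ beyond their spread, with coefficients of variation of 30.6% and 45.2%, and the same held for Ptgs2 and Ccn1, with 56.6% and 33.1%. In psilocybin-light mice Arc led with 2730, followed by Plk2 with 804, Homer1 with 670, Rgs2 with 280, Ptgs2 with 108, Ccn1 with 103 and Pim1 with 29.1. Arc thereby moved from the 88.7th to the 99.3rd percentile of the tested genes per kilobase, and Pim1 from the 27.1st to the 33.0th.

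Counted together against dark mice, the same number of members was called in each comparison. In light mice 4 of 7 were higher, where 15.4% of 14464 genes tested were higher, and 3 of 7 did not overlap with dark mice, where 5.59% of genes were higher without overlap. In psilocybin-dark mice 4 of 7 were higher against 11.9% of all genes, and 2 did not overlap against 3.13%. In psilocybin-light mice 4 of 7 were higher against 17.4%, and 3 did not overlap against 8.28%. The median log2 fold change over the 7 members was 1.34, 0.82 and 1.15 in these comparisons, beside medians over all genes of -0.01, -0.02 and -0.02. All 3 comparisons share the 6 dark mice, so the repeated calls are not independent of each other.

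**Figure D2:**
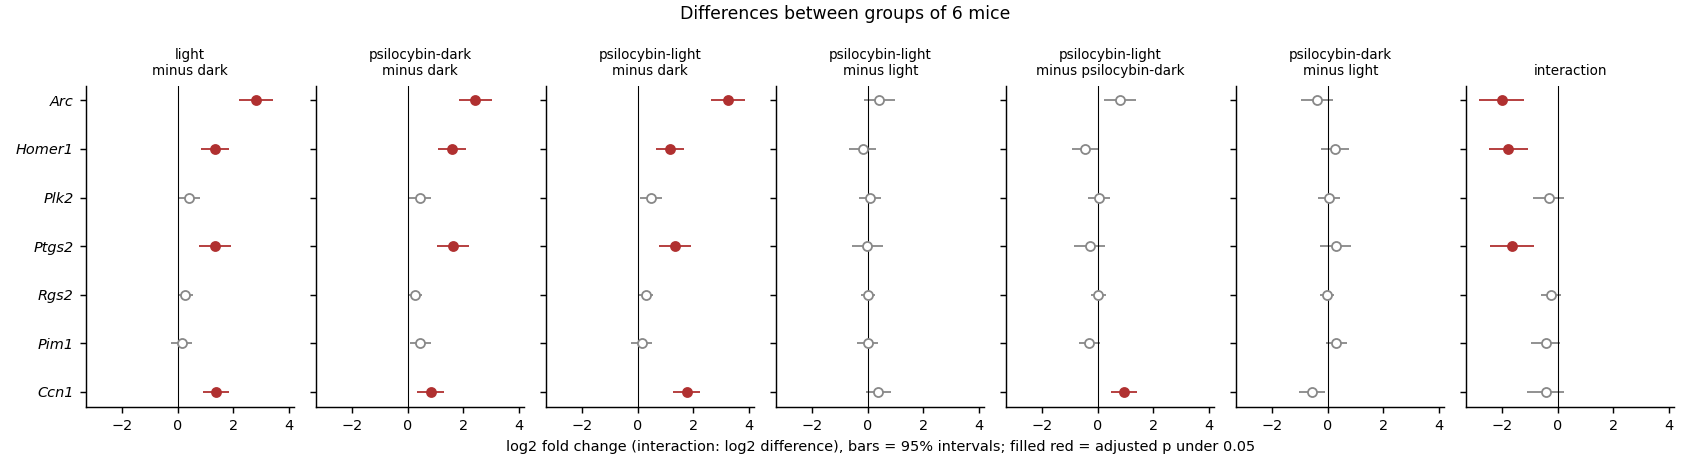
Each panel shows, for 1 comparison, the log2 fold change of the 7 members on the horizontal axis, with bars of 95% intervals and filled red points for edgeR adjusted p-values under 0.05. The 3 comparisons with dark mice hold 4 filled points each, psilocybin-light minus psilocybin-dark holds Ccn1 alone at 0.94, and the interaction holds Arc, Homer1 and Ptgs2, all below 0.

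Adding psilocybin to light was compared in psilocybin-light and light mice. None of the 7 members passed edgeR's test, where 0.608% of all genes were called, and DESeq2 also called 0, where it called 1.32% of all genes. None had an unadjusted edgeR p under 0.05, which 1402 of the 14464 genes tested had. The Arc difference was 0.41 on the log2 scale (interval -0.15 to 0.97, edgeR adjusted p = 0.74), and 1 psilocybin-light mouse stood above every light mouse. Ccn1 differed by 0.38 (interval -0.07 to 0.84), Homer1 by -0.19 (-0.69 to 0.30) and Ptgs2 by -0.02 (-0.57 to 0.53), so changes within those bounds were not resolved with 6 mice a group.

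Light under psilocybin was compared in psilocybin-light and psilocybin-dark mice. Ccn1 alone passed edgeR's test, 1.92-fold higher with light (log2 fold change 0.94, SE 0.24, adjusted p = 0.0187), and it alone did not overlap, where 2.6% of all genes were called higher and 2.61% were higher without overlap. The call rested in part on psilocybin-light mouse 20, which had the highest value, and without it the difference was 0.80 (edgeR adjusted p = 0.0547). Arc was 1.74-fold higher with light, a log2 fold change of 0.80 that missed the threshold (SE 0.29, edgeR adjusted p = 0.106), and 5 of 6 psilocybin-light mice were above every psilocybin-dark mouse. Homer1 pointed the other way, at -0.45 (SE 0.25, edgeR adjusted p = 0.345). Without the 4 libraries high in cerebellar markers, which removed psilocybin-dark mouse 12, Homer1 was lower with light by the test (-0.56, edgeR adjusted p = 0.0103), and Ccn1 remained higher (0.88, edgeR adjusted p = 0.0078), in a fit that called 16.7% of all genes.

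Psilocybin alone and light alone were compared in psilocybin-dark and light mice. No member passed edgeR's test, where 0.456% of all genes were called, and DESeq2 also called 0, where it called 2.8% of all genes. An unadjusted edgeR p under 0.05 was found for 1 member, and for 2076 of the 14464 genes tested. Ccn1 was that member, with a log2 fold change of -0.56 (interval -1.03 to -0.09, edgeR adjusted p = 0.267). Arc was at -0.39 (interval -0.95 to 0.17), Homer1 at 0.26 (-0.24 to 0.75) and Ptgs2 at 0.28 (-0.27 to 0.83).

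The interaction asks whether psilocybin and light together gave the sum of their separate log2 changes. For Arc the sum was 5.27 and the combined change 3.23, which left -2.03 (SE 0.41, edgeR adjusted p = 0.00554). For Homer1 the sum was 2.93 and the combined change 1.14, which left -1.78 (SE 0.36, edgeR adjusted p = 0.00554). For Ptgs2 the sum was 2.98 and the combined change 1.33, which left -1.65 (SE 0.40, edgeR adjusted p = 0.0146). These 3 of 7 members were called lower, where 4.86% of all genes were. Of the 12 cortical glutamatergic markers 4 were called lower in the interaction (median -0.60). Against dark mice 5, 5 and 6 of them were called higher in light, psilocybin-dark and psilocybin-light mice (medians 0.66, 0.67 and 0.65), with 1 lower in the last. Over all genes 15.4%, 11.9% and 17.4% were called higher in these comparisons, and 21% lower in the last. Ccn1, with a sum of 2.20 and a combined change of 1.76, left -0.44 (SE 0.34, edgeR adjusted p = 0.465) and was not called. Without the 4 libraries high in cerebellar markers the same 3 members were called, at -1.94, -1.68 and -1.38, in a fit that called 26.4% of all genes. All 6 dark mice enter each interaction, and with the light exposure of the sample labels the 3 values become positive.

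The marker levels moved with several of these results. In the 4 libraries with the lowest glutamatergic marker sums Plk2 had its 4 lowest values, and Homer1 was the lowest of its group in light mouse 18 and psilocybin-dark mouse 12 and lowest in dark mice 1 and 6. Pim1 had the highest values of its group in dark mice 1 and 6 and light mouse 18 (110, 104.2 and 135.7), and was 112.1 in psilocybin-dark mouse 12, where the group median was 113.2. With the mean level of the glutamatergic markers in the fit, added after the data were seen, Arc stayed higher against dark mice by 2.09, 1.65 and 2.55 and Ptgs2 by 1.14, 1.41 and 1.13. Homer1 then lost its call in light (0.29, edgeR adjusted p = 0.162) and psilocybin-light mice (0.20, edgeR adjusted p = 0.322) and kept it in psilocybin-dark mice (0.55, edgeR adjusted p = 0.0256). That fit called 27.2%, 13.6% and 29.7% of all genes in the 3 comparisons with dark mice and 5.59% in the interaction. In it Pim1 was called higher in all 3 groups, by 0.68, 1.00 and 0.66, Ccn1 lost its psilocybin-dark call (0.34), and Plk2 was at -0.36, -0.32 and -0.21. The interaction then held Pim1 (-1.02, edgeR adjusted p = 0.0391), while Arc (-1.19, edgeR adjusted p = 0.0891), Homer1 (-0.64, edgeR adjusted p = 0.0516) and Ptgs2 (-1.42, edgeR adjusted p = 0.0799) missed the threshold.

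**Figure D3:**
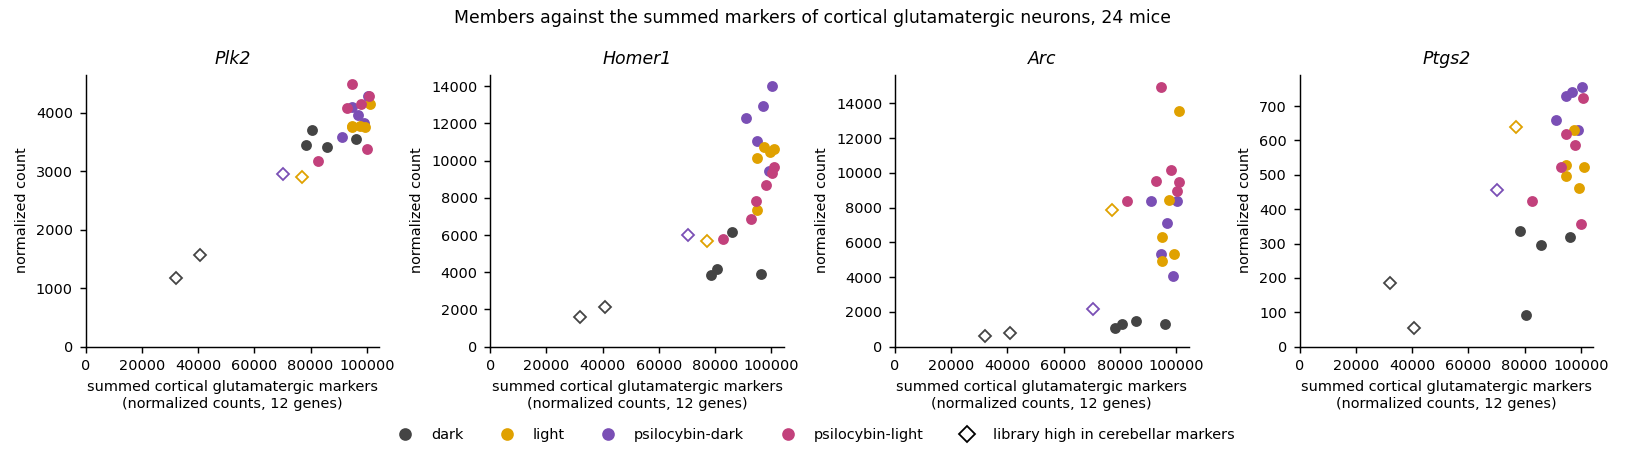
Each panel plots the normalized count of 1 gene against the summed normalized counts of 12 cortical glutamatergic markers in 24 mice, colored by group, with open diamonds for the 4 libraries high in cerebellar markers. The dark diamonds lie lowest for Plk2, Homer1 and Arc at sums of 32050 and 40860, while the other 4 dark mice, with sums of 78420 to 96200, still lie below every mouse of the other groups for Arc and Ptgs2.

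With the mean level of the hippocampal markers in the fit, no member was called by edgeR against dark mice or in the interaction, and 3, 2, 3 and 1 members had an unadjusted p under 0.05 in light, psilocybin-dark and psilocybin-light mice and in the interaction. The share of all genes with such an unadjusted p was not counted in this fit, so these counts have no background. By adjusted p it called 2.37%, 0% and 2.92% of all genes against dark mice and 0% in the interaction, so the loss was not particular to these genes. The Arc log2 fold changes became 1.81, 1.39 and 2.09 (edgeR adjusted p = 0.0627, 0.5 and 0.052), while those of Homer1 became 0.36, 0.62 and 0.02. Ptgs2 stayed at 1.60, 1.89 and 1.63, and Ccn1 at 1.37, 0.81 and 1.75, with wider errors. The mean level used in this fit was 2.90 in dark mouse 6, 2.91 in light mouse 18 and 3.07 in psilocybin-dark mouse 12, so that dark and other mice overlapped in it, through these 3 libraries high in cerebellar markers.

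**Figure D4:**
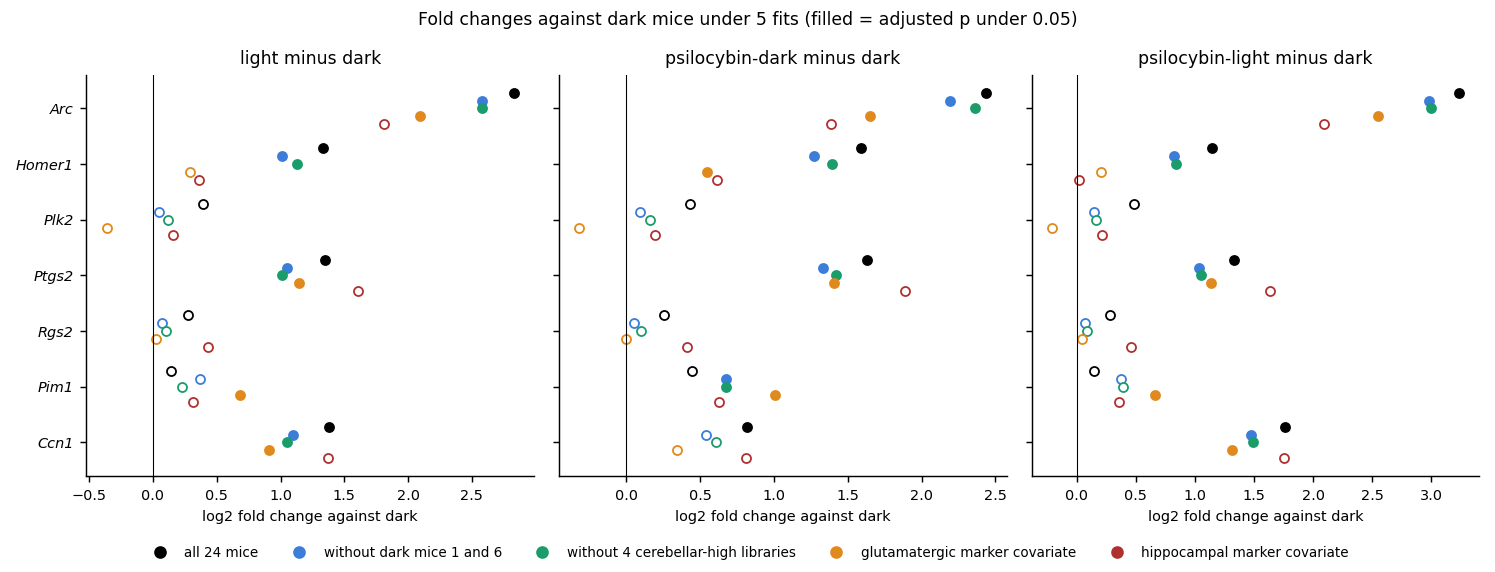
Each panel plots, for 1 group against dark mice, the log2 fold change of the 7 members under 5 fits, with filled points for edgeR adjusted p-values under 0.05. Arc and Ptgs2 stay filled in 4 of the 5 fits in every panel, Homer1 moves toward 0 with either marker covariate, and no point of the hippocampal fit is filled.

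Over all 24 mice, the genes whose levels most resembled each member were taken from 11111 genes with a mean normalized count of at least 100, by Pearson's r of log2 levels, and group differences and tissue content are shared by the points. Arc was nearest to the immediate early gene Egr1 (r = 0.964), then Sertad1 (0.956) and the ephrin receptor gene Ephb3 (0.955). Ccn1 was nearest to Egr2 (r = 0.937), Fos (0.928) and Nr4a1 (0.927), all of them immediate early transcription factors. Ptgs2 was nearest to Evc2 (r = 0.912), the neuropeptide gene Crh (0.905) and Ccbe1 (0.904). Homer1 was nearest to Clstn1 (r = 0.974), Rgs4 (0.973) and Gm35040 (0.967), Plk2 to Syt16 (0.98), the muscarinic receptor gene Chrm1 (0.976) and Pld3 (0.97), and Rgs2 to Ptk2b (0.945), Sgsm2 (0.94) and Mchr1 (0.932). Pim1 had the weakest likeness, to Tgfb3 (r = 0.734), Pofut2 (0.721) and Aass (0.715).

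Genes of the members' pathways were grouped in 8 lists, whose median log2 fold changes against dark mice ran from -0.12 to 0.24 in light, -0.02 to 0.17 in psilocybin-dark and -0.325 to 0.13 in psilocybin-light mice. Of 11 genes for Arc's partners in AMPA receptor endocytosis and spine actin, 1 was higher and 1 lower in light, 2 and 0 in psilocybin-dark and 3 and 0 in psilocybin-light mice than in dark mice. Over all genes, 15.4% were higher and 16.5% lower in light, 11.9% and 12.8% in psilocybin-dark and 17.4% and 21% in psilocybin-light mice. Sh3gl1, which encodes endophilin A2, rose by 0.26 in light mice (SE 0.07, edgeR adjusted p = 0.00427), and the dynamin gene Dnm3 fell by 0.27 (SE 0.08, edgeR adjusted p = 0.0115), a call lost without the 4 libraries high in cerebellar markers (-0.08, edgeR adjusted p = 0.199). Of 10 Homer family and partner genes, 1 was higher and 2 lower in light, 2 and 0 in psilocybin-dark and 1 and 4 in psilocybin-light mice. Grm5, which encodes a metabotropic glutamate receptor that Homer proteins hold, fell in light mice by 0.58 (SE 0.17, edgeR adjusted p = 0.0136). The scaffold gene Shank3 was higher in light mice by 0.20 (SE 0.07, edgeR adjusted p = 0.04), and not without the 4 libraries (0.13, edgeR adjusted p = 0.139).

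Among 7 tested of 9 polo-like kinases and Plk2 substrates, 1 was higher and 1 lower in light, 2 and 1 in psilocybin-dark and 2 and 1 in psilocybin-light mice. Rasgrf1, a Ras activator that Plk2 phosphorylates, fell in light mice by 0.38 (SE 0.08, edgeR adjusted p = 0.001), and the sister kinase gene Plk3 rose by 0.49 (SE 0.17, edgeR adjusted p = 0.0322; 0.36 and adjusted p = 0.0903 without the 4 libraries). Of 16 tested of 19 genes of prostanoid synthesis, breakdown and reception, 5 were higher and 1 lower in light, 3 and 0 in psilocybin-dark and 4 and 3 in psilocybin-light mice. Mgll, the lipase that frees arachidonic acid in brain, rose from 2884 ± 656.3 in dark mice to 4974 ± 407.7 in light mice (mean ± SD, n = 6, log2 fold change 0.79, edgeR adjusted p = 2.52e-05). Ptgis, which makes prostacyclin, rose from 34.72 ± 9.117 to 69.66 ± 14.65 (1.00, edgeR adjusted p = 0.00138), and Ptges2, a prostaglandin E synthase gene, rose by 0.24 (edgeR adjusted p = 0.00668).

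Of 15 tested of 17 other RGS genes, 5 were higher in each of the 3 groups than in dark mice, and 1, 1 and 2 were lower. Rgs11 rose in light mice from 100.6 ± 24.1 to 286.4 ± 36.72 (log2 fold change 1.51, edgeR adjusted p = 6.51e-07), Rgs6 from 570 ± 130.5 to 1318 ± 137.6 (1.21, edgeR adjusted p = 4.5e-06) and Rgs4 from 3592 ± 1436 to 8815 ± 1652 (1.30, edgeR adjusted p = 0.000196; mean ± SD, n = 6). These 3 rose where Rgs2 itself did not pass. With the glutamatergic markers in the fit Rgs11 (1.17, edgeR adjusted p = 0.000181) and Rgs6 (0.99, edgeR adjusted p = 0.00146) stayed called in light mice. Rgs4 did not (0.42, edgeR adjusted p = 0.0749). Of 7 Pim kinases and Pim1 substrates, 3 were higher and 0 lower in light, 1 and 1 in psilocybin-dark and 2 and 1 in psilocybin-light mice. Cdkn1a, the cell cycle inhibitor p21 that Pim1 phosphorylates, rose in light mice by 0.99 (SE 0.16, edgeR adjusted p = 9.45e-05), Pim3 by 0.22 (edgeR adjusted p = 0.039) and Akt1s1 by 0.15 (edgeR adjusted p = 0.0458), the last not without the 4 libraries (0.07, edgeR adjusted p = 0.197).

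Of 8 tested of 10 CCN family and integrin genes, 3 were higher in each group, and 1, 1 and 3 were lower. Ccn4 rose in light mice from 22.58 ± 8.675 to 81.43 ± 15.31 (mean ± SD, n = 6, log2 fold change 1.84, edgeR adjusted p = 4.34e-06). The integrin genes Itgb3 and Itgav, whose products pair into a receptor for Ccn1, rose by 0.99 (SE 0.16, edgeR adjusted p = 7.17e-05) and 0.55 (SE 0.12, edgeR adjusted p = 0.00163). Of 16 regulators of the SRF, MEF2, CREB and YAP families, 1 was higher and 3 lower in light, 3 and 2 in psilocybin-dark and 2 and 5 in psilocybin-light mice. Mef2c rose in light mice by 0.97 (SE 0.25, edgeR adjusted p = 0.00479) and was at -0.01 with the glutamatergic markers in the fit. Yap1 and its partner Tead1 fell in light mice by 0.36 (SE 0.10, edgeR adjusted p = 0.00952) and 0.50 (SE 0.10, edgeR adjusted p = 0.000629). Of the 22 partner genes that the naming rule picked, all of them called in light mice by that rule, 18 were called without the 4 libraries high in cerebellar markers, 11 with the glutamatergic markers in the fit and 2, Rgs11 and Itgb3, with the hippocampal markers in it.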

How the data were processed

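Poly(A) RNA from the visual cortex of 24 mice was sequenced by the authors, with 1 library per mouse as labelled. Per the methods, cutadapt, STAR and HTSeq were used by the authors to trim, align and count the reads on GRCm39, while the submitters' processing notes name mm10 as the build. Gene annotation release, strand setting and tool versions are not given in the sources used here, so overlapping antisense reads were not separable. The deposited values are raw counts for 55414 genes, and 0 columns were left unused.

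Analysis used edgeR 4.0.16 and limma 3.58.1 in R 4.3.3. Genes with a count of at least 30 in any library (14464, of which GENCODE vM39 names 14427) were scaled by TMM and fitted with a quasi-likelihood model of 1 term per group over all 24 mice. Each test was two-sided, p-values were adjusted by Benjamini-Hochberg across all tested genes, and the threshold was 0.05, and the common biological coefficient of variation was 0.182. Single genes were also compared by exact permutation of 6 against 6 mice (924 splits, smallest p 0.00216, 42 tests, unadjusted). The fit was tested on simulated data. The members, lists and tests were chosen with earlier results of these data known. Named genes are the 7 members, up to 3 called genes per list with the smallest p in light minus dark, and the 3 genes most like each member, and 1 gene so picked is not reported here. Likeness used log2 values with a prior count of 2.

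Alternatives were DESeq2 1.42.0, the tool of the study, its size factors in edgeR, no filter or filterByExpr (15628 genes), a fit of the compared groups alone, a surrogate variable (sva 3.50.0), hippocampal markers as a covariate, the light exposure of the sample labels, dark mice 1 and 6 left out and each mouse left out. Leaving out the 4 libraries with a cerebellar marker sum above 20000 and the glutamatergic and cerebellar marker covariates were chosen after the data were seen. Group names follow the headings of the supplementary count table. Python 3.11.15 and matplotlib 3.10.9 drew the figures.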

Additional observations from a re-analysis of the deposited data

Results flagged for a closer look

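Among the 28 sets of 6 mice (7 genes in 4 groups), 4 held a lowest or highest mouse set apart by Dixon's ratio, and chance alone marks about 1 in 20 such sets. Psilocybin-light mouse 21 had an Arc count of 14940, above the others of its group. Light mouse 18 had a Plk2 count of 2903 and psilocybin-dark mouse 12 an Rgs2 count of 815.8, each below its group, and both are among the 4 libraries high in cerebellar markers. Psilocybin-dark mouse 7 had a Pim1 count of 102.8, below a group that otherwise spanned 111.4 to 116.6.

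The effect of psilocybin differed between light and darkness for 3 members by edgeR's interaction test: Arc by -2.03 on the log2 scale, Homer1 by -1.78 and Ptgs2 by -1.65. Over all genes 4.86% were called lower, and 4 of the 12 cortical glutamatergic markers were too. None of the 3 members was called with the glutamatergic or the hippocampal markers in the fit. With the light exposure of the sample labels the 3 values become positive.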

How the results depend on the processing

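The counts of members called were within 1.5 times of those above under DESeq2, its size factors in edgeR, no filter or filterByExpr, a fit of the compared groups alone, and without dark mice 1 and 6. With 1 surrogate variable 7 members were called in psilocybin-dark against dark mice, 3 between the psilocybin groups and 5 in the interaction, and the cause was not tested. That fit called 34%, 13.4% and 19.8% of all genes in these comparisons. With the hippocampal markers in the fit the count was 0 in light, psilocybin-dark and psilocybin-light against dark mice and 0 in the interaction. That fit called 2.37%, 0%, 2.92% and 0% of all genes there. Between the psilocybin groups 2 members were called without the 4 libraries high in cerebellar markers and 2 with the cerebellar markers in the fit, and with the glutamatergic markers 3 were called there and 1 in the interaction, in each case for a cause that was not tested. Between the psilocybin groups these 3 fits called 16.7%, 12.6% and 10% of all genes. The glutamatergic fit called 5.59% in the interaction. By the light exposure of the sample labels 4 members were called lower in light than in dark mice, 0 in psilocybin-dark and 0 in psilocybin-light against dark mice, 4 higher in psilocybin-light and 4 in psilocybin-dark against light mice, 1 lower between the psilocybin groups and 3 positive in the interaction, as the exchange of names fixes. The shares of all genes called pass to the renamed comparisons in the same way. With 1 mouse left out, the counts were 4 to 5 (light), 4 to 5 (psilocybin-dark), 4 to 6 (psilocybin-light), 0 to 0 (psilocybin-light minus light), 0 to 1 (between the psilocybin groups, 0 without psilocybin-light mouse 20), 0 to 0 (psilocybin-dark minus light) and 3 to 3 (interaction). The share of all genes called was not counted in the fits with 1 mouse left out, so these counts have no background.

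Apart from the exchange of exposure by the sample labels, signs turned only for differences that missed the threshold, given on the log2 scale. With the glutamatergic markers in the fit Plk2 was at -0.36, -0.32 and -0.21 against dark mice and 0.47 in the interaction, where Rgs2 was at 0.018 and Ccn1 at 0.066, and Pim1 was at -0.017 between psilocybin-light and light. In that comparison 1 surrogate variable gave -0.032 for Plk2 and -0.073 for Rgs2, the hippocampal markers 0.026 for Ptgs2, the cerebellar markers -0.0096 for Plk2 and -0.062 for Rgs2, and leaving out the 4 libraries 0.039 for Ptgs2 and -0.018 for Rgs2. Between the psilocybin groups 1 surrogate variable gave -0.043 for Plk2 and -0.031 for Rgs2, leaving out the 4 libraries -0.016 for Rgs2, and the cerebellar markers -0.13 for Plk2 and -0.080 for Rgs2. The cerebellar markers gave 0.018 for Rgs2 between psilocybin-dark and light. With 1 mouse left out, Pim1 ranged from -0.0083 to 0.24 in light against dark. Between psilocybin-light and light, Ptgs2 ranged from -0.11 to 0.085, Rgs2 from -0.025 to 0.040 and Pim1 from -0.061 to 0.16. Between the psilocybin groups Plk2 ranged from -0.0028 to 0.11 and Rgs2 from -0.022 to 0.054, and between psilocybin-dark and light Plk2 ranged from -0.020 to 0.10 and Rgs2 from -0.047 to 0.028. No paired analysis was possible because the groups share no replicate numbers.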
